A study of Homo sapiens with 16 samples.

Results

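Toledo is an established cell line from a diffuse large B-cell lymphoma, and its cells carried a set of acetylated gene ends whose H3K27ac peaks were listed only in the absence of a CARM1 inhibitor. The peaks of 4 H3K27ac lists were merged where they overlapped or touched, which gave 10288 regions. Regions were chosen by these H3K27ac lists: a region was a member of the set if it had a peak in both DMSO lists, a peak in neither CARM1 inhibitor list, and lay within 2 kb of either end of a protein-coding RefSeq gene. This left 545 regions, which lay at 691 genes. These are called lost regions here, a name that refers to the peak lists alone, since a site without a peak may still be acetylated below the caller's threshold.

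CARM1 is an arginine methyltransferase and transcriptional coactivator whose substrates include the acetyltransferases CREBBP and EP300. Those enzymes deposit H3K27ac, the acetylation of lysine 27 of histone H3 that marks active promoters and enhancers. H3K4me3, trimethylation of lysine 4, marks the starts of active genes, and H3K4me1 marks enhancers and the flanks of promoters. The series title places the work in lymphomas with mutated CREBBP or EP300 and asks about acetyltransferase activity when CARM1 is inhibited.

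Chromatin immunoprecipitation followed by sequencing (ChIP-seq) covered the 3 marks. One group received the inhibitor TP-064 at 5 uM (CARM1i in the plots), the other the solvent DMSO, and both were harvested on day 6. Each mark had 2 libraries per group, 12 in all, and 4 input samples were not used here. It is 1 cell line at 1 dose and 1 time, with no untreated group, and nothing in the labels says that replicates came from separate cultures, so the p-values below measure only the spread between these libraries, which may be technical.

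Read depth is unknown, because the lists give positions only. Every DMSO library carries lane 3 in its label and every inhibitor library lane 4, and effects of the lane cannot be told apart from those of treatment. The H3K27ac lists held 7885 and 4016 peaks in DMSO replicates 1 and 2 and 4771 and 4595 in inhibitor replicates 1 and 2. The second DMSO list was thus shorter than both inhibitor lists. The H3K4me3 lists ran from 12476 peaks in DMSO replicate 1 to 10048 in inhibitor replicate 2, and the H3K4me1 lists from 25058 and 9673 in DMSO to 4094 and 4242 with inhibitor. H3K4me3 peaks stood at all 12 of 12 B-cell marker genes in both DMSO lists and at 9 in both inhibitor lists. In both DMSO lists they stood at 1 of 15 T and NK cell markers, 2 of 11 myeloid markers and 2 of 14 epithelial and stromal markers.

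The sequences just upstream of the start site are shown for the 6 genes of the cell cycle, DNA replication and mitosis lists that came first in the DMSO width ranking used below and had an entry in the promoter table. Genes of these lists are described in detail further on and were 39 of the 691 genes. Each line gives the 250 bases before the start, 5′ to 3′ on the gene's strand, from RefSeq (GRCh38.p14). Capitals mark matches on either strand to the E2F motif TTTNNCGC, the cell cycle homology region TTTGAA, and the CCAAT box bound by NF-Y. E2F factors switch on S-phase genes, and the other pair of elements is common in genes of late cell cycle phases. E2F2, a member of the E2F family itself, lies at chr1:23531234-23531483 on the minus strand. CKS1B, a small subunit of cyclin-dependent kinases, lies at chr1:154974431-154974680 on the plus strand. RRM2, the small subunit of ribonucleotide reductase, lies at chr2:10122489-10122738 on the plus strand. RBL1, a relative of the retinoblastoma protein, lies at chr20:37095998-37096247 on the minus strand. SLBP, which binds the stem-loop of histone mRNA, lies at chr4:1712320-1712569 on the minus strand. E2F3 lies at chr6:20401629-20401878 on the plus strand.
E2F2: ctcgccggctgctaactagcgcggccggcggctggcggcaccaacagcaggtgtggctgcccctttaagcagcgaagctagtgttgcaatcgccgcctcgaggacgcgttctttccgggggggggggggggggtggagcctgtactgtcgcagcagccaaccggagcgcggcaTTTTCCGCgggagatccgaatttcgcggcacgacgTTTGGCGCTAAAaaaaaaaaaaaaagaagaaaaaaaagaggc
CKS1B: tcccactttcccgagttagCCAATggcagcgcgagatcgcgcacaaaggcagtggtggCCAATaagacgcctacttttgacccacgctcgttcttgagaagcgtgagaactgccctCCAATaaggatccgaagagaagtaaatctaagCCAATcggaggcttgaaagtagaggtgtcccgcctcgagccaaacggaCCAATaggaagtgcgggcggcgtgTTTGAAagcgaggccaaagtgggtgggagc
RRM2: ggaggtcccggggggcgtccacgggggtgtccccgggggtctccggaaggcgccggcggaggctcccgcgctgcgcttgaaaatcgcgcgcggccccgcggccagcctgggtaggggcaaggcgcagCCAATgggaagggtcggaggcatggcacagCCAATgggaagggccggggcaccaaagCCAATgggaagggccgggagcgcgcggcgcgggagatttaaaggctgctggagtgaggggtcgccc
RBL1: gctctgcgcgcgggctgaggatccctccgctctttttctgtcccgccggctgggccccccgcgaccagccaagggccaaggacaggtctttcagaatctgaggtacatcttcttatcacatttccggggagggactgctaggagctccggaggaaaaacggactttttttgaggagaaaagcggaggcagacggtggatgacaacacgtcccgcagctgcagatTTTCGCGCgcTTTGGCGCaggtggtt
SLBP: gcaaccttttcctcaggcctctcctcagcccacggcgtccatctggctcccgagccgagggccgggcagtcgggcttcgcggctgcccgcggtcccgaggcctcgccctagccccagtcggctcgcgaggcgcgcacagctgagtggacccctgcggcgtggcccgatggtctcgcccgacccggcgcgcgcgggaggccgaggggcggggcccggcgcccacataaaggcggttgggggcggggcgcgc
E2F3: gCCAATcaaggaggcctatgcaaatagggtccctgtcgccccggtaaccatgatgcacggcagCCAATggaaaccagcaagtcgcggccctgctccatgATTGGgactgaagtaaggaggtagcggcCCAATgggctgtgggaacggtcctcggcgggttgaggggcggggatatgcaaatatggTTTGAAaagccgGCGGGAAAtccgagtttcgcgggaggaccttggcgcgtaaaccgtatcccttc
The E2F2 sequence held 3 E2F matches, beginning 77, 42 and 38 bases before the start, of which the last pair overlap. RBL1 held 2, at 26 and 16 bases. CKS1B held 5 CCAAT boxes and 1 cell cycle homology match, RRM2 held 3 CCAAT boxes, and E2F3 held 4 CCAAT boxes beside 1 match of each other kind. SLBP held no match to any of the 3. A match is a string of letters, not a binding site.

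The H3K27ac peaks of the lost regions were below the middle of their lists in width. Their median width percentiles were 41.2 and 28.1 within the lists of DMSO replicates 1 and 2. The H3K27ac lists chose the regions, so this is given as a description with no test. Of the 1928 gene-end regions with a peak in both DMSO lists, 28.3% were lost, 946 had a peak in both inhibitor lists and are called kept, 282 had one in inhibitor replicate 1 only, and 155 in replicate 2 only. Over all merged regions in both DMSO lists, 24.5% were lost. The lost regions' widest peak ran from 813 bp through a median of 1589 bp to 7766 bp in DMSO replicate 1, and from 670 through 1215 to 6189 bp in replicate 2. Kept regions had medians of 2531 and 1822 bp. In 486 of the 545 lost regions the peak was wider in replicate 1, and in all 545 the peaks of both DMSO libraries overlapped. Since width set the members apart from kept regions, a subset of 275 kept regions of like DMSO width (medians 1801 and 1230 bp) is used beside the whole. It holds the kept regions whose lower width percentile within the DMSO lists was at most 42.6, the upper quartile of the lost regions. Regions were not matched one by one, and the subset was still wider than the lost regions in replicate 1. Without DMSO replicate 2 the rule would have found 2100 regions, and without inhibitor replicate 1 it would have found 827. With all lists cut to equal length it found 269, which included 222 (40.7%) of the 545. The nearest inhibitor H3K27ac peak was a median of 96533 bp from the lost regions, and 57 of them had one within 10 kb. For lost regions away from gene ends the median was 84337 bp. The rule itself leaves out any region that overlaps an inhibitor peak. In bulk ChIP-seq, fewer cells that carry a mark and less of the mark per cell cannot be told apart.

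**Figure D1:**
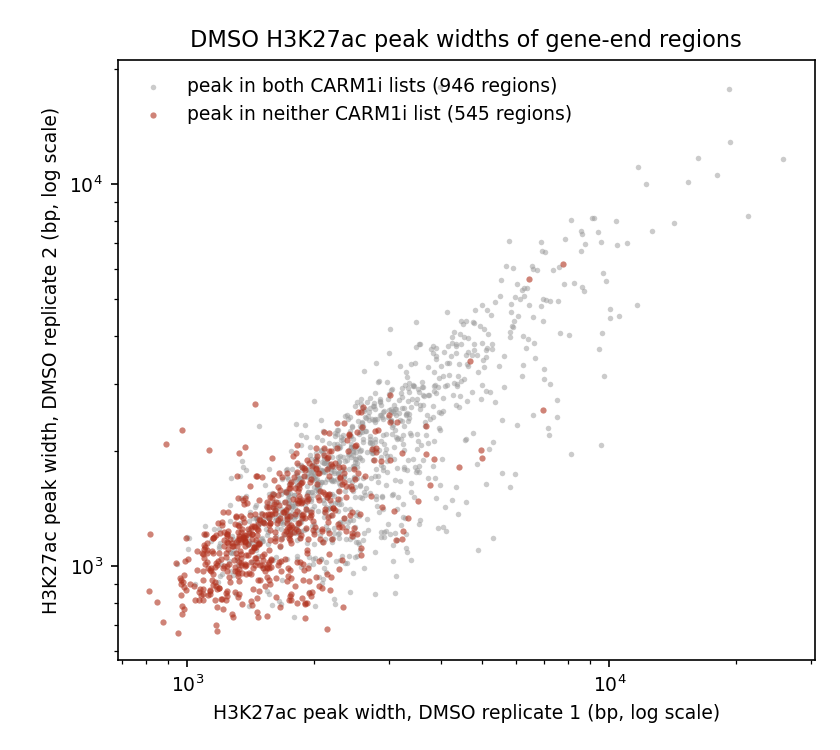
H3K27ac peak width in DMSO replicate 2 (vertical, bp, log scale) against replicate 1 (horizontal, bp, log scale) for the 946 kept (grey) and 545 lost (red) gene-end regions, one point per region. Lost regions gather at the narrow end, with medians of 1589 and 1215 bp against 2531 and 1822 bp, and a few reach widths typical of kept regions.

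The lost regions were mostly at gene starts. The gene end itself lay inside 493 of the 545 regions (90.5%), and 452 had a known start site in the 2 kb window, against 18 with only a gene's far end and 71 where the strand was not in the table used here. One gene was in reach of 404 regions, 129 had 2 genes and 12 had 3 or more, so that a region cannot always be given to 1 gene. The ends of 3 genes each lay at the regions of ANAPC15, a subunit of the anaphase-promoting complex, with LRTOMT and TOMT; of CDK4, the G1 cyclin-dependent kinase, with MARCHF9 and TSPAN31; of the ribosomal protein gene RPS25 with CENATAC and TRAPPC4; of ZNF48 with MYL11 and SEPTIN1; and of C11orf98 with CSKMT and LBHD1. Among lost regions just inside the limit, those of GPR25, ID3 and ARHGAP25 were 1954, 1951 and 1811 bp from the gene end. Just outside it were regions by CIMAP1D, RCBTB2 and SERHL2, at 2055, 2088 and 2094 bp.

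Regions were ranked by width, taking the lower of the 2 within-list percentiles in DMSO. The 3 widest were neighbours on chromosome 14 and were at gene ends rather than starts. The first, chr14:102930570-102938646, touched the far ends of AMN, a subunit of the cobalamin receptor, and CDC42BPB, a cytoskeletal kinase, with DMSO H3K27ac widths of 7766 and 6189 bp. The next ones, both by the far end of TRAF3, an inhibitor of non-canonical NF-kB signalling, were 6453 and 5631 bp and 4677 and 3447 bp wide in DMSO replicates 1 and 2. None of these 3 had H3K4me3 in any library, and all 3 had H3K4me1 in all 4. At the AMN region H3K4me1 covered 10077 and 9938 bp in DMSO and 5177 and 4764 bp with inhibitor, so that both inhibitor libraries were below both DMSO libraries. The region near GPR25, an orphan G protein-coupled receptor, had the same marks, with H3K4me1 over 4621, 5025, 3369 and 2872 bp in DMSO replicates 1 and 2 and inhibitor replicates 1 and 2. Covered lengths here and below are the bases under peaks within the region widened by 1 kb on each side.

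E2F2 was the first-ranked lost region that contained a gene start, and its H3K4me3 differed by more than that of any other proliferation gene among the members. Its H3K27ac peaks were 6968 and 2565 bp wide in DMSO replicates 1 and 2. H3K4me3 covered 4756 and 4046 bp in DMSO and 1244 and 961 bp with inhibitor, a log2 ratio of -2.00. H3K4me1 there covered 7031 and 3702 bp in DMSO and 2106 and 1828 bp with inhibitor. For both methylation marks the inhibitor libraries were below the DMSO libraries with no overlap. ID3, an inhibitor of basic helix-loop-helix factors and a frequent mutation target in Burkitt lymphoma, had a lost region in the same neighbourhood, at its far end, with H3K4me3 over 1627 and 1341 bp in DMSO and none with inhibitor.

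In the remaining members among the 15 widest, other than that of FERMT3, H3K4me3 was shorter with inhibitor and still present. They lay at HNRNPF and SRSF10, splicing regulators; RBM15, an adaptor of RNA methylation; the start of GAPDH of glycolysis with the far end of NCAPD2, a condensin subunit; HMGB2, an architectural protein; H2AZ2, a histone variant; CKS1B with SHC1, a signalling adaptor; DBF4, the activator of the replication kinase CDC7, with SLC25A40, a mitochondrial carrier; and NSD2, an H3K36 methyltransferase. At H2AZ2 the H3K4me3 length was 4104, 4073, 2851 and 2489 bp in DMSO replicates 1 and 2 and inhibitor replicates 1 and 2. At NSD2 it was 3107, 2971, 2784 and 2623 bp, a smaller difference. In each of these regions other than that of FERMT3, H3K4me3 was shorter in both inhibitor libraries than in either DMSO library.

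H3K4me3 took no part in choosing the regions. Nearly all lost regions still carried it: the share with a peak was 95.8% and 95.6% in the DMSO libraries and 93.6% and 93.0% with inhibitor. The means were 95.7% ± 0.13 and 93.3% ± 0.389 (SD, n = 2 each), a difference of -2.39 percentage points (exact two-sided permutation test over 4 libraries, p = 0.33). No exact permutation test of this design can go below p = 0.33, so none can pass a threshold of 0.05, and differences are given by size and by whether libraries overlap. In 507 of the 545 regions H3K4me3 was present in all 4 libraries, and 23 had none in any. Of 521 with H3K4me3 in both DMSO lists, 11 (2.11%) had it in neither inhibitor list. At kept regions this held for 11 of 849 (1.3%), and at kept regions of like width for 0 of 258. The background was 3.34% over all H3K27ac regions in both DMSO lists and 10.9% over all H3K4me3 regions. Both backgrounds include regions away from gene ends. The share at lost regions was thus below these backgrounds but above the shares at kept regions. The count of 11 at lost regions was 53 in the regions found without DMSO replicate 2 and 18 in those found without inhibitor replicate 1.

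**Figure D2:**
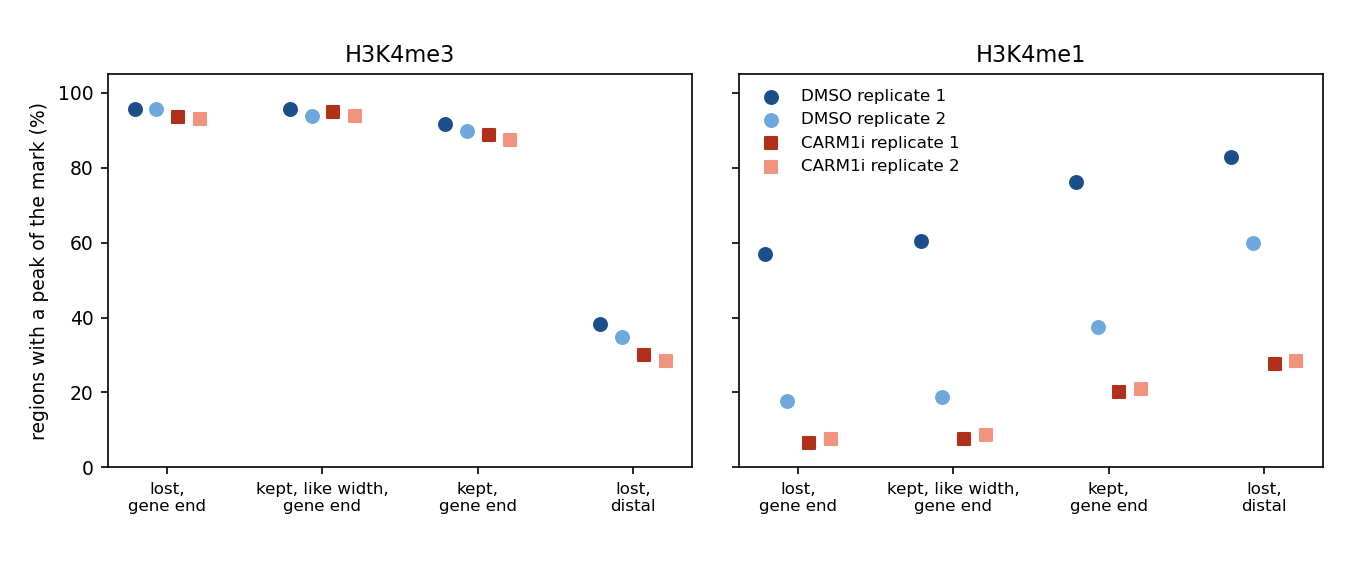
Percentage of regions with a peak of H3K4me3 (left) and H3K4me1 (right), one point per library, for the 545 lost regions, kept gene-end regions of like DMSO width (275) and of any width (946), and lost regions away from gene ends (267, distal). H3K4me3 stays above 90% in every library at lost gene ends, and for H3K4me1 the DMSO libraries lie far from each other.

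What differed was the length of the H3K4me3 domain. Its mean covered length per lost region was 2662 and 2513 bp in DMSO and 2146 and 1979 bp with inhibitor, a difference of -0.33 on the log2 scale (exact permutation test, p = 0.33). Of the 510 regions with some H3K4me3 coverage in every library, 461 (90.4%) were shorter in both inhibitor libraries than in either DMSO library and 1 was longer in both. The background was 82.2% over the 2020 H3K27ac regions in both DMSO lists with such coverage, and 81.9% over all H3K4me3 regions in all 4 lists. The share was 76.2% at kept regions, 75.6% at kept regions of like width, and 92.1% (70 of 76) at lost regions away from gene ends. The median log2 ratio was -0.28 at lost, -0.21 at kept and -0.24 at all of these regions, so most of the shortening was shared by regions that kept H3K27ac.

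The difference between lost and kept regions was small. Mean covered length at kept regions was lower by 0.27 on the log2 scale with inhibitor, so that the change at lost regions exceeded it by -0.06 (exact permutation test, p = 0.33). Against kept regions of like width the excess was -0.10, and the 4 library values behind it were -0.08 and -0.07 in DMSO and -0.18 and -0.18 with inhibitor, with no overlap. Within the bounds of the H3K27ac region itself, without the added 1 kb, the excess over all kept regions was 0.07 in the other direction.

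The edges of the H3K4me3 domain were nearer to the start with inhibitor. Covered length falls when the edges of a peak move inward, and also when a peak splits or a further peak in the window is not called. The length within the H3K27ac region was saturated at many regions. In 285 of the 545 lost regions (52.3%) H3K4me3 peaks covered the whole H3K27ac region in all 4 libraries, and counted without the added 1 kb only 25.0% of regions were shorter in both inhibitor libraries. The edges were measured at the 368 lost regions with exactly 1 start site of the promoter table inside. The median upstream edge of H3K4me3 was 1060 and 999 bp from the start in DMSO and 867 and 798 bp with inhibitor, a difference of -197 bp. The median downstream edge was 1621 and 1533 bp in DMSO and 1321 and 1229 bp with inhibitor, a difference of -302 bp. In both directions the inhibitor libraries were below the DMSO libraries (exact permutation test, p = 0.33 each). The DMSO H3K27ac peaks were shorter than this, reaching 590 and 399 bp upstream and 953 and 795 bp downstream. At kept regions of like width the upstream difference was -266 bp and the downstream difference -222 bp.

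**Figure D3:**
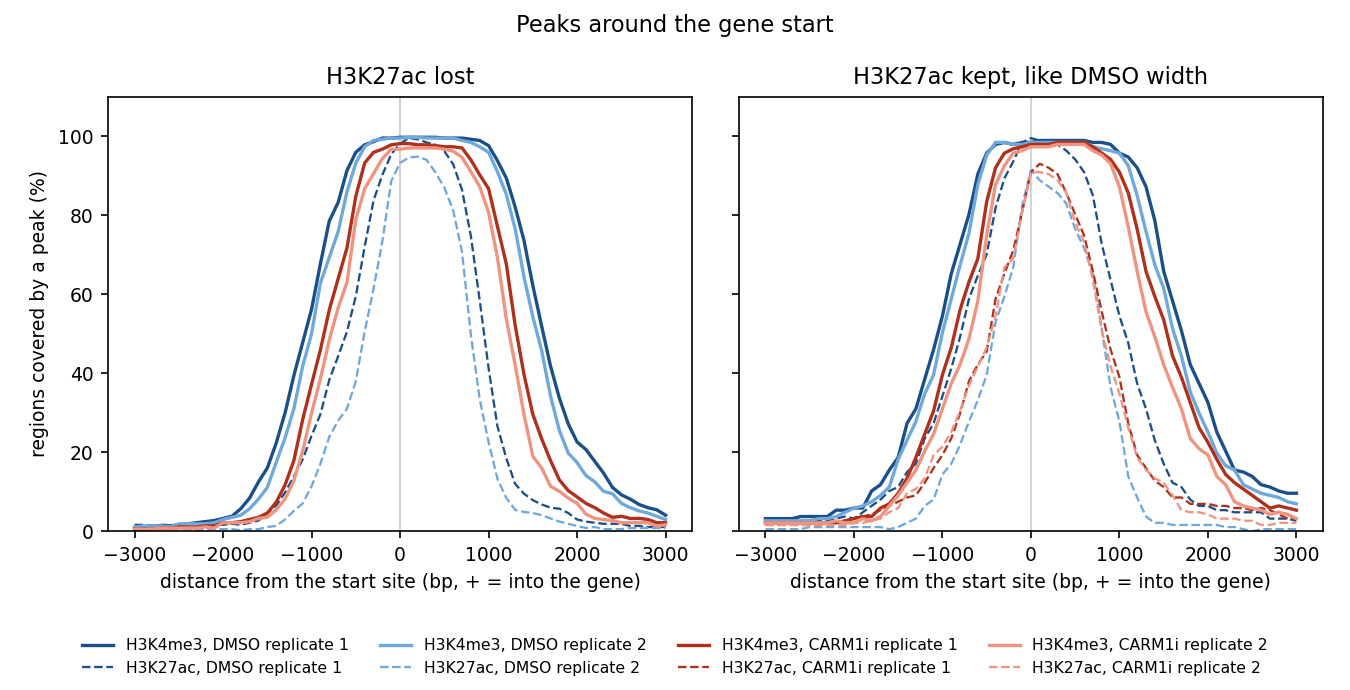
Percentage of gene starts covered by a peak (vertical) at each distance from the start (horizontal, bp, positive into the gene) for the 368 lost regions (left) and 187 kept regions of like DMSO width (right) with 1 start site inside. Solid lines are H3K4me3 and dashed lines H3K27ac, one per library. The inhibitor H3K4me3 curves lie inside the DMSO curves on both flanks in both panels, and the start itself stays covered by H3K4me3 in at least 96.7% of the lost regions in every library.

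Genes of cell proliferation formed the largest group among the gene lists used. Of the 2375 genes within 2 kb of an H3K27ac region in both DMSO lists, 29.1% were at a lost region. In the lists for the cell cycle and E2F targets, DNA replication, and mitosis, 39 of 57 such genes were at a lost region: 17 of 27, 8 of 13 and 14 of 17. A gene could count through either end. NCAPD2 of the mitosis list entered through its far end, in the region of the GAPDH start, which counts for glycolysis as well. The counts of these and of the other gene lists rest on the contrast that chose the regions and carry no test. With peak lists cut to equal length the rule gave 11, 4 and 7 genes of the cell cycle, replication and mitosis lists, and 345 genes in all in place of 691.

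H3K4me3 was shorter in both inhibitor libraries at all 39 of the members of these 3 lists, beside 90.4% of all lost regions, with log2 ratios from -2.00 at E2F2 to -0.06. Their median was -0.46, against -0.28 over all lost regions, and it was -0.03 when counted without the added 1 kb. The 21 regions of the same lists that were not lost had a median of -0.33, and 18 of them were shorter, so a median below that of all lost regions was also found where these genes had not lost H3K27ac. It was not particular to these lists: the regions that were not lost had medians of -0.42 for glycolysis (3 regions), -0.36 for B-cell identity (24 regions) and -0.34 for NF-kB (8 regions), and the 1 lost region of the NF-kB list with H3K4me3 was at -0.52. MCM3 and MCM5, subunits of the replicative helicase, had some of the largest differences. At MCM3, H3K4me3 covered 2972 and 2975 bp in DMSO and 1654 and 1593 bp with inhibitor. At MCM5 it covered 2714 and 2444 bp in DMSO and 1515 and 1315 bp with inhibitor. Their DMSO H3K27ac peaks were 1245 and 859 bp wide at MCM3 and 1905 and 801 bp at MCM5, beside medians of 1589 and 1215 bp.

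Regulators of the cell cycle had the same pattern. MYBL2, a transcription factor of the complex that activates mitotic genes, had H3K4me3 over 2394, 2444, 1682 and 1315 bp in DMSO replicates 1 and 2 and inhibitor replicates 1 and 2. At FOXM1, another activator of mitotic genes, the lengths were 3095, 2788, 2000 and 2000 bp. RRM2 had 4994, 4962, 3249 and 2813 bp, and RBL1 had 2595, 2193, 1546 and 1572 bp. In all 4 genes the libraries of the 2 treatments did not overlap. E2F3 had 4248, 4106, 3621 and 3007 bp, and CKS1B, at 3737, 3293, 3105 and 3125 bp, was near the weak end of the group with a log2 ratio of -0.17.

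Markers of proliferation and genes of chromosome segregation were alike. MKI67, the proliferation antigen, had H3K4me3 over 2991, 2687, 2191 and 1918 bp in the same order of libraries. BIRC5, which encodes the survivin subunit of the chromosomal passenger complex, had 2079, 1899, 1415 and 1105 bp. NDC80 of the outer kinetochore had 3094, 2885, 2211 and 1935 bp, and PRC1, which bundles spindle microtubules, had 2786, 2623, 2146 and 1828 bp. For RFC3, a subunit of the clamp loader of replication, the lengths were 2509, 2357, 1615 and 1523 bp. The kinase gene AURKA, with 3330, 2952, 2520 and 2429 bp, and the kinetochore gene CENPF, with 3025, 2626, 2242 and 1931 bp, again had both inhibitor libraries below both DMSO libraries.

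**Figure D4:**
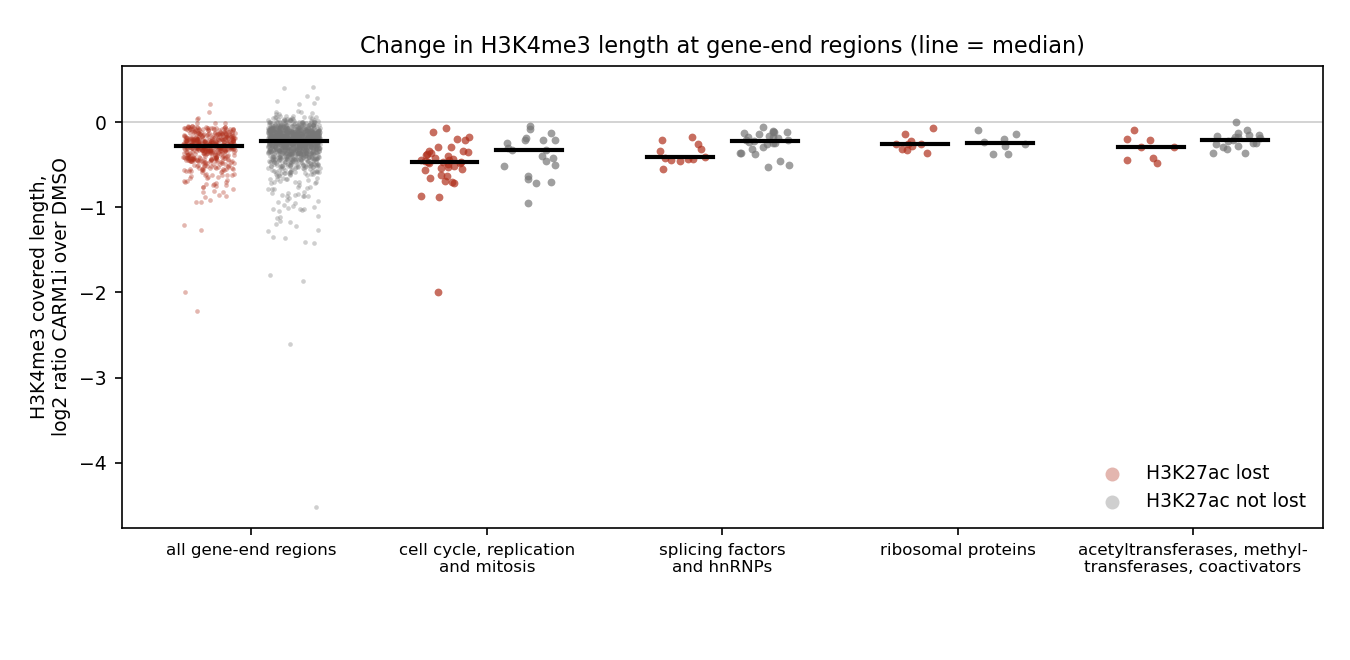
Log2 ratio of H3K4me3 covered length, inhibitor over DMSO (vertical), for each gene-end region with H3K4me3 coverage in all 4 libraries, split into lost (red) and not lost (grey) H3K27ac and by gene list (horizontal). Black lines are medians. Of the groups plotted the proliferation genes lie lowest (-0.46 lost, -0.33 not lost; some lists that are not plotted have lower medians), and the ribosomal protein genes have the same median in both states (-0.25).

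Genes of RNA and protein synthesis were also among the members. Of 19 ribosomal protein genes with an H3K27ac region in both DMSO lists, 11 were at a lost region, among them FAU, RPS25 and RPL7A. H3K4me3 was shorter in both inhibitor libraries at 8 of the 10 of their regions with coverage in every library, beside 90.4% of all lost regions. The median log2 ratio was -0.25. Of the 8 regions of this list that were not lost, 7 were shorter, with the same median. At RPL7A it covered 3268 and 2885 bp in DMSO and 2520 and 2375 bp with inhibitor. RPS19 was reached only through its far end, where no library had H3K4me3. Of 38 splicing factor genes 12 were at a lost region (31.6%, close to the 29.1% of all genes). H3K4me3 was shorter in both inhibitor libraries at all 12, with a median of -0.41. It was also shorter at 25 of the 26 regions of the list that were not lost, with a median of -0.21. SNRPA, of the U1 particle, had 3327 and 3195 bp in DMSO and 2778 and 2054 bp with inhibitor.

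Other housekeeping lists had few members, beside 29.1% of all genes at a lost region. They held 6 of 9 genes of the mitochondrial respiratory chain, including CYCS, which encodes cytochrome c, and 3 of 6 of glycolysis, which were GAPDH, ENO1 and HK2. They also held 6 of 11 chaperone genes, 6 of 19 translation factor genes and 3 of 10 proteasome and ubiquitin genes. H3K4me3 was shorter at all 6 respiratory chain members, all 3 glycolysis members and all 3 proteasome and ubiquitin members, at all 6 chaperone regions with coverage in every library, and at 5 of 6 translation factor members, beside 90.4% of all lost regions. The list of DNA repair and checkpoint genes had 7 of 14 at a lost region, with H3K4me3 shorter at 5 of the 7.

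**Figure D5:**
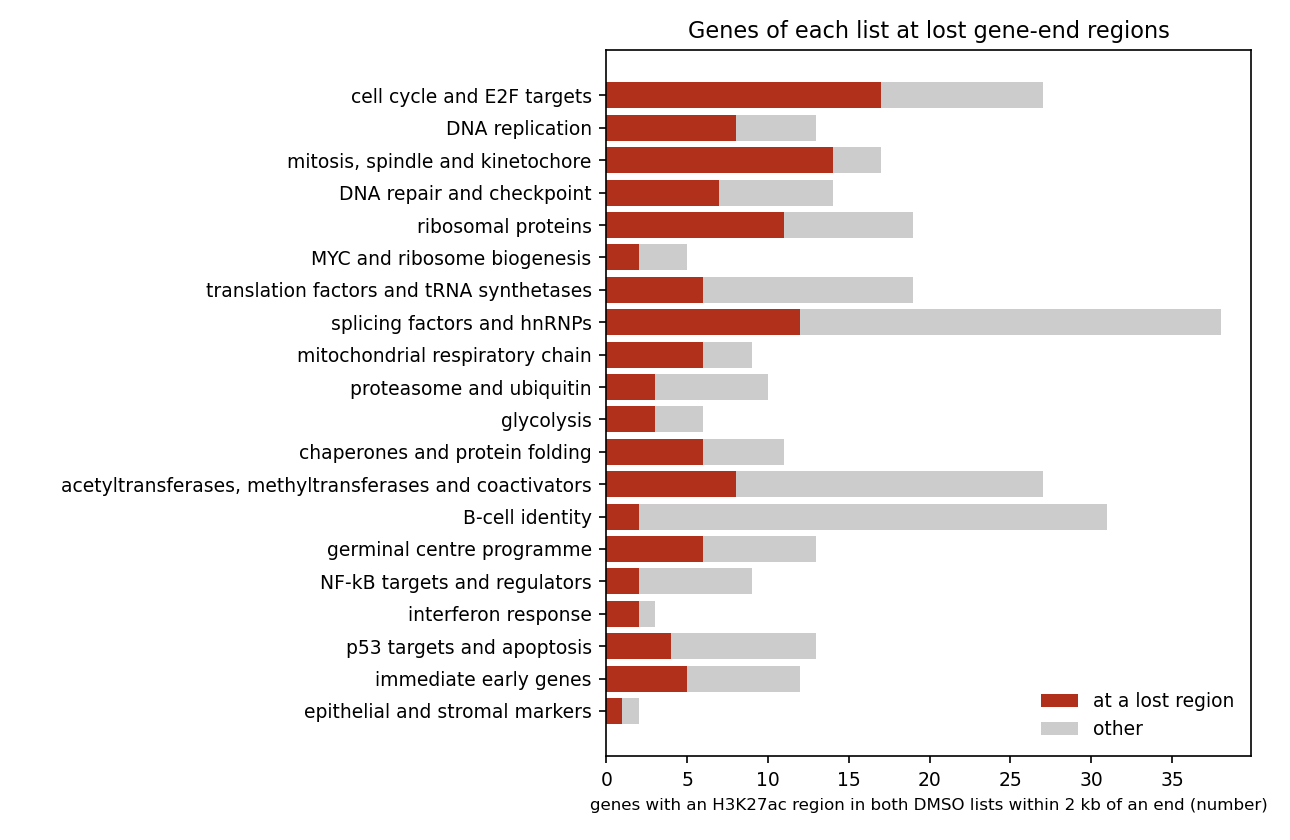
Number of genes of each list with an H3K27ac region in both DMSO lists within 2 kb of a gene end (whole bar), and of these the genes at a lost region (red). The red part takes 14 of 17 for mitosis and 2 of 31 for B-cell identity.

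Few genes of the B-cell identity list were at a lost region. Of 31 B-cell identity genes with an acetylated region in both DMSO lists, 2 were, beside 29.1% of all genes. SPI1, which encodes the transcription factor PU.1, was among them. SPI1 had DMSO H3K27ac widths of 2445 and 1626 bp, and H3K4me3 over 2323, 1904, 1724 and 1818 bp in DMSO replicates 1 and 2 and inhibitor replicates 1 and 2. The count for this list rests on the contrast that chose the regions, whose DMSO peaks were narrower than those of kept regions, and carries no test. It was between 0 and 10 in the alternatives tried, with 0 for gene starts only and 10 without DMSO replicate 2.

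Germinal centre and signalling genes were divided. Of 13 germinal centre genes 6 were at a lost region, beside 29.1% of all genes. H3K4me3 was shorter in both inhibitor libraries at 4 of these 6, a lower share than the 90.4% of all lost regions. They included BCL6, the repressor that maintains germinal centre B cells, with H3K4me3 over 2442, 2485, 2145 and 2032 bp in that order, and XBP1, a plasma cell and unfolded protein response factor, with 3050, 2818, 2247 and 1916 bp. The NF-kB list had 2 of 9, TRAF3 and BCL3. Of the 5 immediate early members the RNA-binding protein gene ZFP36L1 had H3K4me3 over 5631 and 5013 bp in DMSO and 2930 and 2738 bp with inhibitor. The interferon list held IRF1, at 2976, 2879, 2298 and 2045 bp, and DTX3L, a ubiquitin ligase partner of PARP9. DTX3L was the exception, with 1900 and 2051 bp in DMSO and 2140 and 2156 bp with inhibitor, the one lost region of the 510 where H3K4me3 was longer in both. The list of p53 targets had 4 of 13 genes at a lost region, that of MYC and ribosome biogenesis 2 of 5, and that of epithelial and stromal markers 1 of 2, and no T, NK or myeloid marker gene had a region in both DMSO lists.

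Enzymes and coactivators that act on these marks were members at about the background rate. Of 27 genes for acetyltransferases, methyltransferases and coactivators, 8 were at a lost region (29.6%, beside 29.1% of all genes). CREBBP, whose mutation the series title names, had DMSO H3K27ac peaks of 1660 and 783 bp, near the median of lost regions in replicate 1 and narrow in replicate 2. Its H3K4me3 covered 3024 and 2847 bp in DMSO and 2576 and 2242 bp with inhibitor. PRMT1, the main asymmetric arginine methyltransferase of the family that includes CARM1, had 3609, 3382, 2809 and 2351 bp. Its region was shared with BCL2L12, which counts for the list of p53 targets. PRMT3, a relative of PRMT1, had 3115, 2797, 2643 and 2491 bp. The demethylase gene KDM1A had 2743, 2500, 2428 and 2164 bp, and WDR5, a core subunit of H3K4 methyltransferase complexes, had 2777, 2757, 2335 and 2199 bp.

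At 11 lost regions H3K4me3 peaks were present in both DMSO lists and absent from both inhibitor lists. FERMT3, which encodes the integrin activator kindlin-3, ranks first among them. With the chaperone gene STIP1 it shares a region where H3K4me3 covered 1962 and 1658 bp in DMSO and nothing with inhibitor, while H3K4me1 covered 4653, 4072, 3723 and 2384 bp in the 4 libraries in order. CYBB, the catalytic subunit of the phagocyte oxidase, had H3K4me3 over 1474 and 1707 bp in DMSO and none with inhibitor, and AMPD3, an AMP deaminase, had 1769 and 1727 bp and none. The region of the linker histone gene H1-5 kept 781 and 345 bp with inhibitor in the added flanks, against 2550 and 2680 bp in DMSO, and the one at CARD19 kept 838 and 822 bp against 2008 and 1837 bp. The others were at CMTM8, NUB1, EVI2A, SH2D4B, MYL11 and ID3. Of the 11, the regions of CMTM8, NUB1 and ID3 were at far ends of genes, and with a 1 kb window or with gene starts only the count was 7.

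H3K4me1 differed by more, but its DMSO libraries also differed from each other. The share of lost regions with an H3K4me1 peak was 57.1% and 17.6% in DMSO and 6.42% and 7.52% with inhibitor. The means were 37.3% ± 27.9 and 6.97% ± 0.778 (SD, n = 2 each), a difference of -30.4 percentage points (exact permutation test, p = 0.33). The DMSO spread was about as large as this difference, although both inhibitor libraries were below both DMSO libraries. H3K4me1 was in no library at 229 lost regions, of which 224 had H3K4me3 in all 4. Of 91 regions with H3K4me1 in both DMSO lists, 50 (54.9%) had it in neither inhibitor list, against 34.5% over all H3K27ac regions in both DMSO lists and 54.4% over all H3K4me1 regions. The share was 56.9% at kept regions of like width and 38.6% at kept regions of any width. In the regions found without DMSO replicate 2 the number was 963. It was 91 with inhibitor replicate 1 left out, and 78 with inhibitor replicate 2 left out.

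In 25 lost regions H3K4me1 remained in all 4 lists. Beside those of AMN, TRAF3, GPR25, E2F2 and FERMT3 they included TMEM121, with 3383, 3374, 2379 and 2383 bp of H3K4me1 in the 4 libraries in order, and KIF21B, a kinesin, with 6977, 6977, 5625 and 5652 bp. They also included CMTM8 and NUB1, at the far ends of those genes. Where H3K4me1 covered some bases in all 4 libraries, at 26 lost regions, it was shorter in both inhibitor libraries at 18, beside 84.9% of all H3K27ac regions in both DMSO lists with such coverage. Covered length cannot exceed the widened region, and 10 of the 26 reached that limit in 1 or more libraries, 1 of them in all 4, where no difference could show.

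The lost regions that came last in the width ranking, which takes the lower of the DMSO percentiles, were at ARPC3, a subunit of the actin-nucleating ARP2/3 complex, at the start shared by B3GALT6 and SDF4, and at E2F8, a repressor of the E2F family. ARPC3 had H3K27ac widths of 952 and 670 bp and H3K4me3 over 1736, 1780, 1529 and 1672 bp. E2F8 had H3K27ac widths of 2141 and 687 bp and H3K4me3 over 3174, 3241, 2067 and 2318 bp, so a region whose acetylation was marginal in 1 DMSO library still had a wide H3K4me3 domain. Over the 510 regions, Spearman's correlation between DMSO H3K27ac width (the lower of the percentiles within each DMSO list) and the H3K4me3 log2 ratio was -0.09, a description across regions of the same libraries.

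The promoters of the set were rich in CpG. Of the genes with a start inside a lost region, 477 had an upstream sequence of 250 bases. Their median GC content was 65.6% and their median ratio of observed to expected CpG was 0.89, against 66.0% and 0.86 at kept regions and 62.4% and 0.74 over 15811 protein-coding promoters. Letters were counted on both strands, and matches of different motifs may overlap. The CCAAT box was in 40.9% of lost, 34.8% of kept and 34.4% of all promoters. The ETS motif CCGGAAG was in 20.3%, 13.7% and 11.8%, the cyclic AMP response element TGACGTCA in 4.19%, 1.61% and 2.32%, and the E2F motif in 11.7%, 11.6% and 7.66%. The GC box GGGCGG was in 70.4%, 67.5% and 56.0%. The cell cycle homology region was in 12.6%, 8.17% and 10.8%. In kept regions of like width the CCAAT box was in 32.8%, the ETS motif in 16.2%, the E2F motif in 12.6%, the cell cycle homology region in 9.49%, the cyclic AMP response element in 1.58% and the GC box in 69.2%. These shares are descriptions of sequences chosen through H3K27ac and carry no test.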

How the data were processed

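Toledo cells had 12 ChIP libraries in 6 groups by mark and treatment, grouped by their titles. The submitters' processing notes name hg38, MACS 1.4.2 and Bowtie 1.1.2. How the inputs entered and which peak threshold was set is not given in the sources used here. Each deposited list holds chromosome, start and end, with no score and no reads, so depth is unknown and intervals on counts could not be given. A list shortened by lower depth or by less mark looks the same.

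The members and gene lists were chosen with earlier results of these data known. H3K27ac peaks of 4 libraries were merged where they overlapped or touched, and regions within 2 kb of an end of the 19970 protein-coding genes of the RefSeq table (GRCh38.p14) were kept. Strand came from the promoter table, for 15812 genes; it held no entry for 4158, and chromosome 8 was not analysed for start sites. A mark was counted at a region when a peak overlapped it by at least 1 bp, and its length within the region widened by 1 kb on each side. Libraries were compared by the exact two-sided permutation test over 4 libraries, which has 6 assignments. Genes named were the 15 members widest in both DMSO lists, up to 8 per list, those with H3K4me3 lost or H3K4me1 in all 4 lists, the narrowest, those next to the limit and those with the most genes, of which a representative part is described. Alternatives were other windows, merging rules, stricter or equal lists by peak width, other length measures and each library left out. The code for the calls was run on simulated peak lists, where 200 of 200 planted lost regions were found. Peaks there were present or absent by construction, so the run checks the code and not the peak calling. Python 3.11.15, numpy 2.4.6 and pandas 2.3.3 were used. The labels number replicates 1 and 2 in both groups, but the descriptions name the libraries differently, so the numbers do not show a pairing. A result withheld for evaluation is not reported here.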

Additional observations from a re-analysis of the deposited data

How the results depend on the processing

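The lists give positions only, so a lost peak may be one that fell just below the caller's threshold, and the causes of the shifts below were not tested. The kept regions of like width, the whole peaks and all settings of the shortened share and the proliferation median were added after seeing the data. The number of lost gene-end regions was 545; leaving out 1 library each gave 661 to 2100, and lists of equal length gave 269, of which 222 of the 545 members were part, while 441 were found, with 276 members, when the narrowest 25% of peaks of each list were left out. Of 68 genes described, 44 were at lost regions with lists of equal length and 51 in the stricter lists. The genes at lost regions were 345 rather than 691 with equal lists, and 821 to 2618 with a library left out. Lost H3K4me3 was called at 7 regions with a 1 kb window, 7 with gene starts only and 6 with equal lists, and at 14 to 53 with a library left out. Lost H3K4me1 was called at 9 with equal lists, 15 where a peak had to cover at least 50% of the region, and 54 to 963 with a library left out. The share with shorter H3K4me3 was 25.0% without the added 1 kb, where most regions are covered whole, and 89.3% to 96.4% with a library left out. The median log2 ratio of the proliferation genes was -0.03 without the added 1 kb, and -0.53 to -0.36 with a library left out.

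Some differences turned. H3K4me3 at lost minus kept regions was 0.07 without the added 1 kb, and at lost gene-end minus lost distal regions it was -0.04 (against 0.25) by the median over regions with a peak. H3K4me1 at lost minus kept regions, -0.52, became 0.16 against kept regions of like width, 0.03 with equal lists and 0.52 by the median over regions with a peak, and its log2 ratio at lost regions, -2.11, became 0.21 by that median. The lower share of regions with H3K4me3 or H3K4me1 and the lower H3K4me3 length at lost regions kept their direction in every alternative run. With a replicate block, which pairs numbers the labels do not tie together, the differences were -2.39 and -30.4 percentage points for the shares and -0.33, -0.06, 0.25, -2.11 and -0.52 for the log2 lengths, as without it, and the exact sign-flip permutation test cannot go below p = 0.5.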
